A study of Mus musculus with 56 samples.

Results

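Levels of the 6 genes for the subunits that distinguish the immunoproteasome and the thymoproteasome from the constitutive proteasome were followed in sorted thymic epithelial cells (TECs) before and after delivery in mice. The genes were *Psmb8*, *Psmb9*, *Psmb10*, *Psmb11*, *Psme1* and *Psme2*, chosen by symbol from the 50600 genes of the deposited tables, and all 6 passed the filter on low values. Cortical TECs (cTECs) and medullary TECs (mTECs) each gave 28 RNA samples, 56 in all, each from 1 mouse. The mice were females of the congenic strain B.6SJL-Ptprca Pep3b/BoyJ-CD45.1, all groups of pregnant mice were mated with BALB/cJ males, and pups were removed at birth. The groups were non-pregnant controls (NPC), mice at D-2, which is day 18 of gestation, and mice from D0 (the day of delivery) to D28 postpartum. Per cell type there were 3 samples each for NPC and D-2, and also for D0, D3, D6 and D12. Single samples stood for D1, D2, D4 and D5, for D8 and D10, and for D16, D20, D24 and D28. The labels name no transgene and no drug treatment for any group, and the ages of the mice are not given in the sources used here. Thymi were digested with enzymes, and TECs were sorted as EpCAM+ CD45- cells, with cTECs negative and mTECs positive for the lectin UEA1.

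Proteasomes are barrels of 4 stacked rings that cut proteins into peptides, some of which are loaded on MHC class I molecules. The catalytic β subunits of the constitutive particle are Psmb6 (β1), Psmb7 (β2) and Psmb5 (β5). In the immunoproteasome, which interferon gamma induces in most cells and which many immune cells carry all the time, they are replaced by Psmb9 (β1i), Psmb10 (β2i) and Psmb8 (β5i). The thymoproteasome of cTECs uses β1i and β2i with β5t, encoded by *Psmb11*, a direct target of the TEC transcription factor Foxn1, and is needed for normal positive selection of CD8 T cells. *Psme1* and *Psme2* encode PA28α and PA28β, which form the interferon-inducible cap PA28 that opens the barrel. In bulk samples such as these, fewer cells of a type and less RNA per cell cannot be told apart.

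On GRCm38 the genes lie on 3 chromosomes. *Psmb9* (ENSMUSG00000096727, chr17:34181987-34187764, minus strand) and *Psmb8* (ENSMUSG00000024338, chr17:34197721-34201454, plus strand) lie near each other in the MHC. *Psme1* (ENSMUSG00000022216, chr14:55578123-55581529, plus strand) and *Psme2* (ENSMUSG00000079197, chr14:55587441-55591113, minus strand) lie near each other on chromosome 14, where *Psmb11* (ENSMUSG00000072423, chr14:54621433-54629556, plus strand) also lies. *Psmb10* (ENSMUSG00000031897, chr8:105935735-105938444, minus strand) stands apart on chromosome 8. The expected counts behind the values ranged over the 56 samples from 239 to 66720 for *Psmb11* and from 521 to 29420 for the other 5 genes. Counts were whole numbers in all 56 samples for the 4 *Psmb* genes, in 20 samples for *Psme1* and in none for *Psme2*. *Psme2* shares reads with its near-identical copy *Psme2b*, and its values are uncertain to that extent.

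Since the known regulators of these genes bind short DNA motifs, the 250 bases before each RefSeq transcription start (GRCm38.p6) were searched on both strands for 3 motifs. They were the core of the Foxn1 motif (GACGC), the interferon gamma activated site, or GAS (TTCNNNGAA), and an interferon regulatory factor motif, or IRF (GAAANNGAA). Among 32851 RefSeq windows of the same length, 22.6% held the first, 7.02% the second and 7.13% the last. Matches were found in *Psmb11*, *Psmb8* and *Psme2*, and those 5 sites are shown within 30 bases, 5′ to 3′ on the strand of the gene, with the match in capitals and its position counted from the start site.
*Psmb11* Foxn1 core, bases −239 to −235, chr14:54625060-54625089, plus strand: gctgacaggtgGCGTCttcagagtgtagga
*Psmb11* Foxn1 core, bases −62 to −58, chr14:54625236-54625265, plus strand: agcttctccacaGCGTCctcctcctcctcc
*Psmb8* Foxn1 core, bases −193 to −189, chr17:34197990-34198019, plus strand: ccccatccccagGACGCacgcctaggtgga
*Psmb8* GAS, bases −97 to −89, chr17:34198088-34198117, plus strand: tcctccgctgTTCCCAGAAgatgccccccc
*Psme2* Foxn1 core, bases −160 to −156, chr14:55591244-55591273, minus strand: ctcctcagtctaGCGTCatggaaccccacc
*Psmb11* held the Foxn1 core at 2 positions, and both its stretches and both of *Psmb8* also lie in an exon of 1 other transcript of their own gene in the GENCODE annotation. The windows of *Psmb9*, *Psmb10* and *Psme1* held none of the 3 motifs in these letters, and the IRF letters were in none of the 6 genes. A match is a stretch of letters and not a measured binding site, and no match says only that these letters are not in this window.

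Summed over genes, expected counts ran per sample from 6470058 to 44409018 in cTECs (median 22823581) and from 4561207 to 108547384 in mTECs (median 15590738). The sorted populations differed in their markers, though not without overlap. *Prss16*, a protease of cTECs, had 170 to 3248 FPKM (fragments per unit of transcript length, scaled to the fragments of the sample) in cTECs and 24.4 to 625 in mTECs. *Aire*, the regulator of tissue antigens in mTECs, had 0.09 to 18.9 FPKM in cTECs and 20.03 to 439 in mTECs. *Ptprc*, which encodes CD45 and was used in the sort to remove cells, stayed between 0 and 9.69 FPKM in all samples. The labels name no batch of extraction or sequencing.

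**Figure D1:**
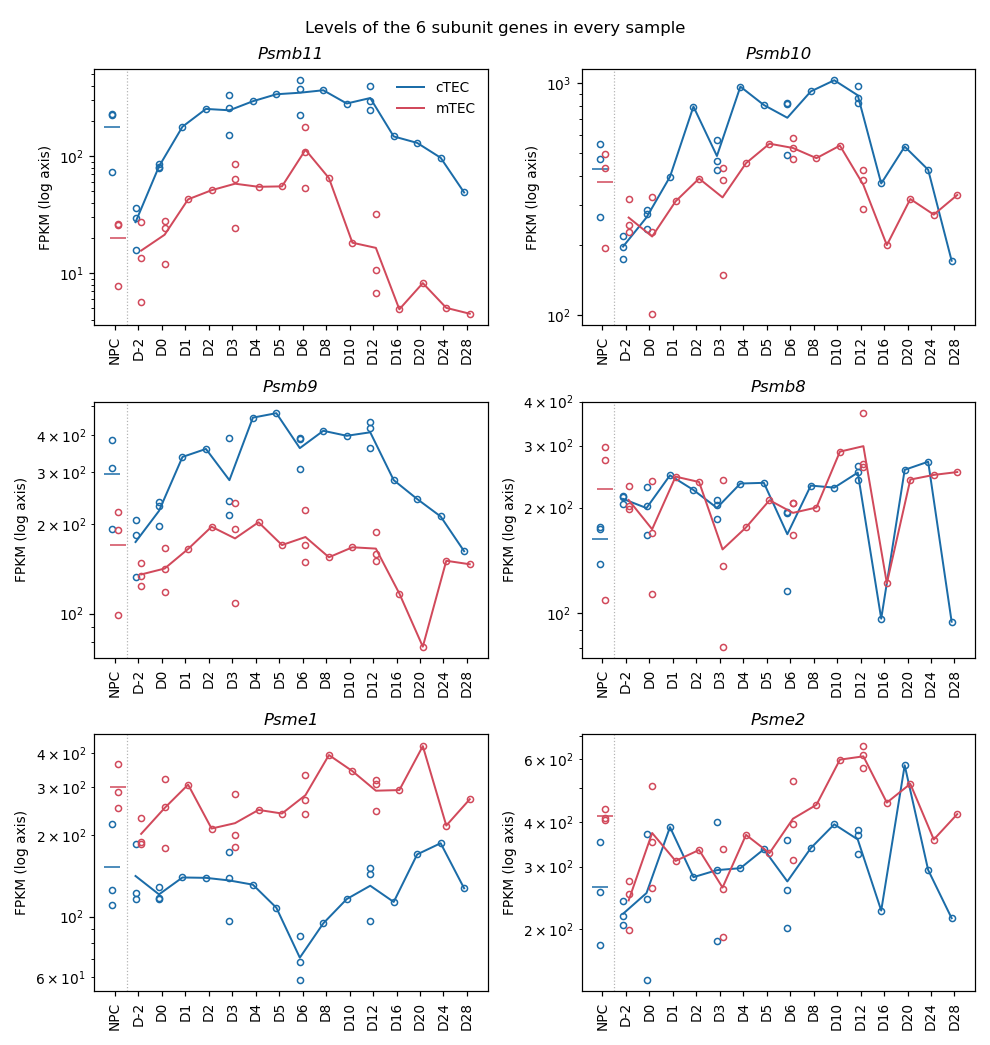
FPKM of each of the 6 subunit genes on a log axis in every sample, by time point, with cTECs in blue and mTECs in red; circles are samples, lines join the means of the time points from D-2 to D28, and the bar at the left is the NPC mean. In cTECs, *Psmb11* goes from a mean of 27.3 at D-2 to 349 at D6 and is 49.0 in the D28 sample, while *Psmb8* covers a narrow range.

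*Psmb11* had the widest range of the 6 genes in cTECs on a log scale. Its FPKM in cTECs was 231, 227 and 73.8 in the NPC samples and 36.2, 15.85 and 29.9 at D-2. It was 85.7, 79.2 and 80.5 at D0, 179 at D1 and 253.5 at D2. All 3 samples of D0 were above all those of D-2, and the D-2 samples were below all NPC samples. FPKM went on to 257, 332 and 151 at D3, 295 at D4 and 338 at D5, and then to 446, 377 and 223 at D6. It was 366 at D8, 282 at D10, and 397, 249 and 296 at D12. In the last samples it was 148 (D16), 129.9 (D20), 97.0 (D24) and 49.0 (D28), all of them above the highest value of D-2. Ordered by mean, the replicated time points ran D-2, D0, NPC, D3, D12 and D6, and among these neighbours only D-2 and D0 had groups that did not overlap.

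The differences were tested on the counts with limma-voom across all genes, a call being a change of 2-fold or more with p no higher than 0.01 after Benjamini-Hochberg adjustment. Groups without overlap were not counted over all genes in any comparison, so that statements on overlap only describe the samples. For D-2 against NPC in cTECs, 0 of the 6 genes were called beside 0% of the 15845 genes tested. In that comparison 1564 genes had an unadjusted p under 0.05, edgeR called 0 genes and DESeq2 96. The log2 difference of *Psmb11* was −2.59 (SE 0.49, limma-voom adjusted p = 0.141) and that of *Psmb10* −1.03 (SE 0.27, adjusted p = 0.322), with all D-2 samples of both genes below all NPC samples. *Psmb9* differed by −0.59 (SE 0.21, adjusted p = 0.465) with overlapping groups. DESeq2 called 2 of the 6 genes there, *Psmb11* and *Psmb10*, and limma-voom without a filter on low genes called 1, *Psmb11*, among 46 of 23523 genes. The summed FPKM of 10 cTEC markers was 8459 in NPC and 2570 at D-2 on average, and their part in these differences was not tested.

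Against D-2, cTECs of D0 and D3 gave 0 calls among the 6 genes, beside 0% of 15845 genes in both comparisons. Genes with an unadjusted p under 0.05 numbered 1107 at D0 and 1339 at D3, while edgeR called 1 and 0 genes and DESeq2 21 and 93. At D0 the log2 difference from D-2 was 1.67 for *Psmb11* (SE 0.23, adjusted p = 0.152) and 0.39 for *Psmb10* (SE 0.13, adjusted p = 0.624). At D3 it was 3.16 for *Psmb11* (SE 0.36, adjusted p = 0.0661), 1.28 for *Psmb10* (SE 0.19, adjusted p = 0.0724) and 0.74 for *Psmb9* (SE 0.21, adjusted p = 0.408). In each of these 5 cases all samples of the later day lay above all D-2 samples, and how many of all genes did so was not counted. The median of all genes at D3 was −0.235 in this fit, −0.132 with DESeq2 and −0.049 in limma-voom with quality weights. DESeq2 and limma-voom without a filter each called *Psmb11* at D0 and both *Psmb11* and *Psmb10* at D3, the latter fit calling 6 of 24233 and 29 of 22415 genes in all. At D3 *Psmb11* was also called in the fit to all 28 samples (18 genes of 15845) and without D3 replicate 3 (11 genes). The summed FPKM of 10 cTEC markers averaged 2570 at D-2, 3935 at D0 and 10550 at D3, and that of 15 thymocyte markers 27.3 at D-2 and 187 at D3. Their part in these differences was not tested.

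By D6, *Psmb11* and *Psmb10* had risen in cTECs. These 2 of the 6 genes were called, beside 1.34% of the 15845 genes. The fold-change of *Psmb11* over D-2 was 12.8 (log2 3.67, SE 0.34, adjusted p = 0.000513), which placed it at position 113 of the 15845 genes ordered from the largest log2 increase down. It kept its call without each of the 6 samples in turn. That of *Psmb10*, which encodes the β2i subunit shared by both special proteasomes, was 3.2 (log2 1.68, SE 0.19, adjusted p = 0.00169), at position 789 in that order. Without D-2 replicate 1 or D-2 replicate 2, *Psmb10* missed the threshold with adjusted p of 0.0132 and 0.0147, and limma-trend on log2(FPKM + pseudocount) called neither gene.

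The remaining 4 genes did not pass at D6, and they differed in sign. *Psmb9*, the β1i subunit, had a log2 difference of 0.95 (SE 0.16, adjusted p = 0.0114), short of the threshold in both size and p. *Psme1* had −0.80 (SE 0.15, adjusted p = 0.0172). *Psmb8* had −0.39 with a 95% interval from −0.93 to 0.15 (adjusted p = 0.365). *Psme2* had 0.22 with an interval from −0.25 to 0.68 (adjusted p = 0.588). D6 samples lay above all D-2 samples for *Psmb9* and below all of them for *Psme1* and *Psmb8*, and overlapped with them for *Psme2*. The summed FPKM of 10 cTEC markers was 1847 to 3302 at D-2 and 14160 to 15690 at D6, and that of 15 thymocyte markers was 26.4 to 28.1 and 75.3 to 98.4. Their part in the results of D6 was not tested.

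*Psmb10* in cTECs had a time course like that of *Psmb11*, at a higher level and with a smaller range on a log scale. Its FPKM was 472, 547 and 266 in NPC, 198, 176 and 219.9 at D-2, and 274, 235 and 284 at D0. It then reached 571, 463 and 425 at D3, 826, 818 and 491 at D6, and 978, 869 and 821 at D12. All D0, D3, D6 and D12 samples were above all D-2 samples. Single samples had 396 at D1, 795 at D2, 969 at D4, 808 at D5, 924 at D8 and 1033 at D10, the highest value of the series for this gene in cTECs. Later ones had 370.2 (D16), 534 (D20), 424 (D24) and 172 (D28), which is below all 3 D-2 samples. By mean the order was D-2, D0, NPC, D3, D6 and D12, and only D-2 and D0 were separate neighbours.

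*Psmb9* in cTECs had FPKM of 309.8, 384 and 192 in NPC, 207, 132 and 184 at D-2, and 387, 390.4 and 306 at D6. It had 422, 442 and 362 at D12 and then 282, 243, 213 and 162 in the samples of D16, D20, D24 and D28. The D6 and D12 samples were above all D-2 samples, and the D28 sample lay among them. Its neighbouring time points in the order of means, D-2, D0, D3, NPC, D6 and D12, all overlapped.

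*Psmb8*, the β5i subunit, did not share this course. Its FPKM in cTECs was 173, 176 and 138 in NPC, 205, 214 and 216 at D-2, and 194, 194 and 116 at D6. At D12 it was 239.8, 252 and 262, and the late samples had 96.65 (D16), 256 (D20), 269.9 (D24) and 94.75 (D28). The D-2 samples, lowest for *Psmb11*, were thus above all NPC and all D6 samples for *Psmb8*. Over the 28 cTEC samples, Pearson's r of log2(FPKM + 0.5) was 0.19 between *Psmb8* and *Psmb11*, against 0.92 between *Psmb9* and *Psmb10*, 0.89 between *Psmb9* and *Psmb11* and 0.91 between *Psmb10* and *Psmb11*. These values describe samples that share their libraries and time course.

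The relation of the 3 genes that compete for the β5 position was followed as the share each took of the summed FPKM of *Psmb11*, *Psmb8* and *Psmb5* in a sample. In cTECs the share of *Psmb11* was 39.0% ± 11.5 in NPC (SD, n = 3), 8.69% ± 3.12 at D-2, 23.0% ± 2.29 at D0, 55.2% ± 4.06 at D6 and 44.6% ± 6.27 at D12. That of *Psmb8* was 67.8% ± 3.80 at D-2 and 26.9% ± 1.04 at D6. *Psmb5* stayed between 14.5% and 29.9% of the sum in all cTEC samples. The transcript with the largest share of the β5 position was thus *Psmb8* at D-2 and *Psmb11* at D6. The late samples had *Psmb11* shares of 46.5% (D16), 23.6% (D20), 21.6% (D24) and 25.1% (D28). Shares depend on the division by length. From expected counts, which are not divided by length, the share of *Psmb11* was 27.4% at D-2, 53.2% at D0 and 83.8% at D6, and 52.2% to 56.8% from D20 to D28. In the D1 sample *Psmb11* had 35.2% by FPKM and 68.55% by counts, and *Psmb8* 48.7% and 25.5%. The leading transcript at D0, at D1 and from D20 to D28 was thus *Psmb8* by FPKM and *Psmb11* by counts. It was so too in NPC replicate 3, D3 replicate 3 and D12 replicate 2, while the other samples of these groups had *Psmb11* first by both. These are shares of transcripts, and protein was not measured.

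**Figure D2:**
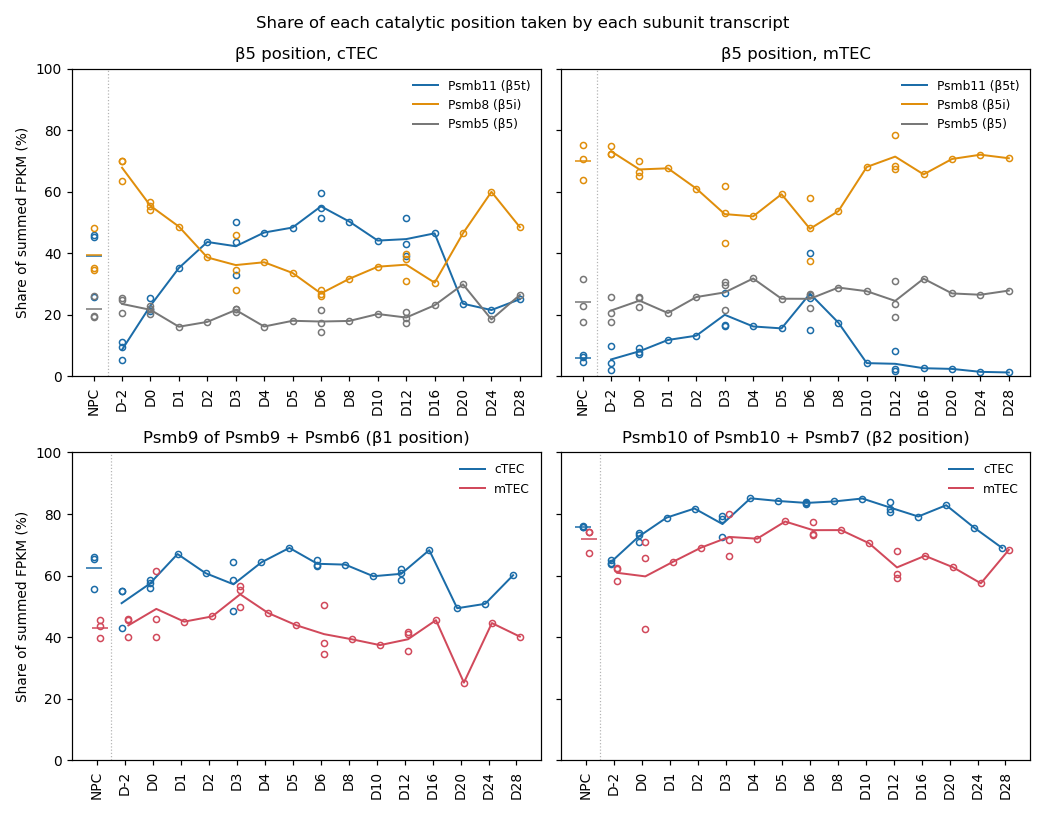
Share (%) of the summed FPKM at each catalytic position in every sample by time point: the upper panels give *Psmb11*, *Psmb8* and *Psmb5* at the β5 position in cTECs and in mTECs, and the lower panels give *Psmb9* at β1 and *Psmb10* at β2 in cTECs (blue) and mTECs (red). Circles are samples and lines join the means; in cTECs the β5 share of *Psmb11* goes from 8.69% at D-2 to 55.2% at D6, and the β2 share of *Psmb10* from 64.3% to 83.6%.

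At the β2 position, *Psmb10* took 64.3% ± 0.667 of the sum of *Psmb10* and *Psmb7* in cTECs at D-2, 75.9% ± 0.210 in NPC and 83.6% ± 0.312 at D6. The 3 groups did not overlap. At the β1 position, *Psmb9* took 51.0% ± 6.86 of the sum of *Psmb9* and *Psmb6* at D-2 and 63.8% ± 0.980 at D6. In mTECs the share of *Psmb10* was 60.9% ± 2.43 at D-2 and 74.8% ± 2.36 at D6, and that of *Psmb9* 43.8% and 41.0% on average. These shares were computed as descriptions and were not tested.

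The PA28 genes, which lie near each other, had different courses in cTECs. FPKM of *Psme1* was 125, 219 and 111 in NPC, 185, 122 and 116 at D-2, and 58.6, 84.9 and 68.2 at D6. At D12 it was 96.1, 143 and 151, and at D24 it was 186. D6 held the lowest values among the replicated time points, all 3 below every sample of D0. *Psme2* had 206, 240.0 and 217 at D-2 and 357, 258 and 202 at D6. The ratio of *Psme1* to *Psme2* by FPKM was 0.647 ± 0.218 at D-2, 0.277 ± 0.098 at D6, 0.360 ± 0.056 at D12 and 0.575 ± 0.073 in NPC (SD, n = 3). Over the 28 cTEC samples it ran from 0.164 to 0.898. The uncertainty of *Psme2* applies to this ratio too.

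In mTECs at D6 the differences of *Psmb11*, *Psmb10* and *Psmb9* from D-2 had the same sign as in cTECs, but 0 of the 6 genes were called, beside 0.299% of 17743 genes. FPKM of *Psmb11* was 27.6, 5.69 and 13.6 at D-2 and 53.9, 178 and 108 at D6. That of *Psmb10* was 318, 228 and 246 at D-2 and 527, 582 and 471 at D6, and that of *Psmb9* was 148, 134 and 124 at D-2 and 149, 224 and 170.2 at D6. All D6 samples lay above all D-2 samples for these 3 genes. The log2 difference was 2.98 for *Psmb11* (SE 0.51, adjusted p = 0.0189), 1.12 for *Psmb10* (SE 0.17, adjusted p = 0.0121) and 0.53 for *Psmb9* (SE 0.17, adjusted p = 0.132). The first 2 passed with an adjusted p of at most 0.05 (257 of 17743 genes called), with DESeq2 (470), with quality weights (286) and with no filter on low genes (105 of 26172). Without TMM only *Psmb10* passed. Neither gene was called by edgeR, by limma-trend, in the fit to all 28 samples or with the replicate block.

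The PA28 genes were higher in every D6 sample than in the D-2 samples of mTECs, while *Psmb8* was not. Of the constitutive genes, *Psmb5* (48.8 to 71.5 FPKM at D-2, 95.4 to 113.3 at D6) was higher in every D6 sample too. So was *Psmb6* (158.0 to 185.7 and 219.8 to 284.4), while *Psmb7* overlapped (150.1 to 190.9 and 169.2 to 189.9). *Psme1* had FPKM of 185, 188 and 231 at D-2 and 333, 239 and 267 at D6, a log2 difference of 0.38 (SE 0.17, adjusted p = 0.232). *Psme2* had 273, 199 and 252 at D-2 and 520.1, 312 and 394 at D6, a difference of 0.52 (SE 0.17, adjusted p = 0.139). Neither passed. *Psmb8* had 199, 201 and 230.1 at D-2 and 206, 167 and 206 at D6, with overlapping groups and a difference of −0.07 (SE 0.16, adjusted p = 0.831) that turned positive when D6 replicate 2 or D-2 replicate 3 was left out. The summed FPKM of 10 cTEC markers in mTECs was 1118 to 2058 at D-2 and 3639 to 6667 at D6, and that of 14 macrophage and dendritic cell markers averaged 88.2 at D-2 and 38.2 at D6. Their part in the values of the 6 genes was not tested.

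The other time points gave 0 calls for the 6 genes in mTECs, beside 0% of 17743 genes for D-2 against NPC, for D0 and D3 against D-2 and for D12 against NPC. Unadjusted p were under 0.05 for 2267, 1257, 2843 and 1173 genes there, edgeR called 0 genes in all 4, and DESeq2 called 165, 29, 137 and 5. FPKM of *Psmb11* was 25.7, 26.6 and 7.77 in NPC, 27.9, 11.9 and 24.2 at D0, 64.4, 85.7 and 24.6 at D3, and 32.0, 6.80 and 10.6 at D12. Groups of NPC, D-2, D0 and D12 overlapped. The log2 difference of *Psmb11* at D3 from D-2 was 1.85 (SE 0.49, adjusted p = 0.0937), beside a median of all genes of −0.267, and at D12 from NPC it was −0.89 (SE 0.53, adjusted p = 0.744).

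For the PA28 genes in mTECs, the D-2 samples lay below all NPC samples. *Psme1* had FPKM of 363, 287 and 250.45 in NPC, and its log2 difference of D-2 from NPC was −0.46 (SE 0.22, adjusted p = 0.414). *Psme2* had 435, 406 and 411 in NPC, and its difference was −0.54 (SE 0.22, adjusted p = 0.35). The median of all genes was 0.169 in that comparison. At D12, *Psme2* reached 566, 654 and 615, above all NPC samples and the only separate neighbour in its order of means, with a difference of 0.47 from NPC (SE 0.18, adjusted p = 0.72). Among the replicated time points, D-2 had the lowest mean of *Psme2* in both cell types.

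In cTECs, D12, the last of the early time points, was also compared with NPC, which were separate mice that were not pregnant. Limma-voom called 0 of the 6 genes, beside 0% of 15845 genes, with 1481 genes at an unadjusted p under 0.05, 0 calls by edgeR and 23 by DESeq2. The D12 samples of *Psmb8*, *Psmb10* and *Psmb11* all lay above all NPC samples. Log2 differences were 0.61 (SE 0.19, adjusted p = 0.528), 1.01 (SE 0.26, adjusted p = 0.528) and 0.99 (SE 0.43, adjusted p = 0.532). NPC replicate 3 was the lowest of the NPC samples for all 3 genes. The position above all NPC samples was not particular to them. The constitutive genes *Psmb5*, *Psmb6* and *Psmb7* had it too, with log2 differences of 0.56, 0.63 and 0.56.

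Between the cell types, *Psmb11* and *Psmb9* were higher in cTECs and *Psme1* was higher in mTECs. Over the 36 samples of the 6 replicated time points, 3 of the 6 genes were called, beside 17% of 18394 genes. The mean log2 difference of cTECs from mTECs was 2.52 for *Psmb11* (SE 0.23, adjusted p = 1.61e-10), 1.01 for *Psmb9* (SE 0.09, adjusted p = 1.54e-10) and −1.16 for *Psme1* (SE 0.09, adjusted p = 8.11e-12). *Psmb10* differed by 0.55 (SE 0.12, adjusted p = 0.000316) and *Psme2* by −0.49 (SE 0.08, adjusted p = 8.28e-06), both short of a fold-change of 2. For *Psmb8* the difference was −0.02 with a 95% interval from −0.26 to 0.22 (adjusted p = 0.891), and it took the other sign with quality weights and with the replicate block. *Psmb9* was under a fold-change of 2 in 6 alternatives, with log2 values of 0.80 to 1.00, and at 0.91 without replicate 1. Without a filter on low genes *Psmb11* had an adjusted p of 0.104.

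The cell types were also compared at each of the 16 time points, 6 of them replicated. The mean of *Psmb11* was higher in cTECs at all 16, and at 5 of the 6 replicated ones all cTEC samples lay above all mTEC samples. The ratio of the FPKM means ran from 1.75 at D-2 to 29.99 at D16. *Psmb9* was also higher in cTECs at all 16, by a ratio of 1.11 at D28 to 3.15 at D20, with separate groups at 3 time points. *Psme1* was higher in mTECs at all 16, with separate groups at 5 and ratios of cTEC to mTEC from 0.240 at D8 to 0.861 at D24. *Psmb10* was higher in cTECs at 14, *Psmb8* at 9 and *Psme2* at 4. Markers of the sorted cells differed too. Of 10 cTEC markers 8 were called higher in cTECs, of 9 mTEC markers 7 were called lower, 9 of 15 thymocyte markers were called higher in cTECs, and 7 of the 12 tested markers of macrophages and dendritic cells were called lower. Their part in the differences of the 6 genes was not tested.

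**Figure D3:**
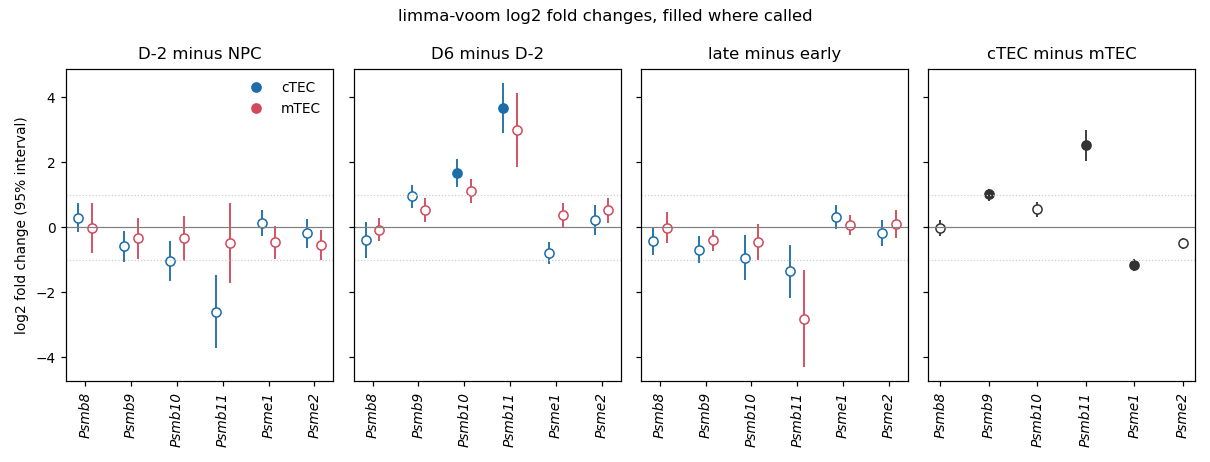
Log2 fold-changes by limma-voom with 95% intervals for the 6 genes: D-2 minus NPC, D6 minus D-2 and late minus early, each in cTECs (blue) and mTECs (red), and cTEC minus mTEC. Filled points were called, and dotted lines mark a fold-change of 2; at D6 *Psmb10* and *Psmb11* are called in cTECs (1.68 and 3.67) while no gene is called in mTECs.

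Whether the changes differ between the cell types was tested as an interaction over both, given as the signed log2 change in cTECs minus that in mTECs. None of the 6 genes was called in the 3 interactions, beside 0% of 18394 genes for D-2 against NPC and 0.00544% both for D6 against D-2 and for late against early. For D-2 against NPC, 1352 genes had an unadjusted p under 0.05, and edgeR called 0 and DESeq2 7. At D6 the interaction of *Psme1* was −1.19 (SE 0.23, adjusted p = 0.0677), beside a median of all genes of −0.138, and DESeq2 called it among 126 of 18394 genes. That of *Psmb10* was 0.58 (SE 0.26, adjusted p = 0.395). The interaction of *Psmb11* at D6 was 0.72 with a 95% interval from −0.74 to 2.18 (adjusted p = 0.715). For D-2 against NPC, *Psmb11* had −2.11 (SE 0.84, adjusted p = 0.652) and *Psme1* 0.62 (SE 0.28, adjusted p = 0.671). The call of *Psmb11* and *Psmb10* at D6 in cTECs and not in mTECs was therefore not shown to be a difference between the cell types.

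Late samples, the 4 of each cell type taken from D16 onwards, were compared with the 18 early ones from D0 up to D12. The late ones are single samples of different days, and the early ones pool several days. SDs, SEs and p-values of this comparison, in both cell types, thus include differences between days and not only between mice of the same day. In cTECs 0 of the 6 genes were called, beside 1.41% of 15845 genes. *Psmb11* had a log2 difference of −1.35 (SE 0.40, adjusted p = 0.0322), *Psmb10* −0.93 (SE 0.34, adjusted p = 0.0708), *Psmb9* −0.69 (SE 0.20, adjusted p = 0.0284) and *Psme1* 0.32 (SE 0.18, adjusted p = 0.258). All of these groups overlapped. With quality weights *Psmb8*, *Psmb10* and *Psmb11* were called, in a fit that called 1045 of 15845 genes. Of the 10 cTEC markers 9 were negative (median −0.59) and 1 was called. That gene was *Foxn1*, whose product is known to activate *Psmb11*, with −1.28 (SE 0.26, adjusted p = 0.00386). The part of *Foxn1* in the late values of *Psmb11* was not tested. With D12 counted as late, 0 of all genes were called in cTECs, *Foxn1* included. The summed FPKM of endothelial and mesenchymal markers averaged 205 in the early and 512 in the late cTEC samples, and its part in these values was not tested.

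In mTECs 0 of the 6 genes were called for late against early, beside 0.062% of 17743 genes. FPKM of *Psmb11* in the late mTEC samples was 4.92, 8.24, 5.06 and 4.51, and their mean of 5.68 ± 1.72 (SD, n = 4) stood against 50.9 ± 41.7 in the early samples (SD, n = 18). The log2 difference was −2.81 (SE 0.72, adjusted p = 0.042), and it was called by DESeq2 (20 genes of 17743), with an adjusted p of at most 0.05 (184) and where D12 was counted as late (159). The D20 sample lay within the early range, so that the groups overlapped. The summed FPKM of 10 cTEC markers averaged 3250 in the early and 1417 in the late mTEC samples, and that of 14 macrophage and dendritic cell markers 73.8 and 135. Their part in the values of *Psmb11* was not tested. *Psmb9* differed by −0.40 (SE 0.16, adjusted p = 0.155). The interaction of *Psmb11* between the cell types was 1.37 (SE 0.95, adjusted p = 0.67).

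The other genes of the proteasome had smaller differences than *Psmb11* and *Psmb10* at D6 in cTECs. All 3 constitutive catalytic genes had positive differences from D-2 with 0 called and a median of 0.29, beside −0.03 for all genes and 0.58 for the 6 genes. Of the 11 other subunits of the 20S barrel, all were positive (0.39 to 1.16, median 0.73), and 1 was called. That gene was *Psmb4*, a non-catalytic β subunit, with 1.16 (SE 0.17, adjusted p = 0.00553). Of 18 subunits of the 19S cap 17 were positive and 0 called (median 0.43), and of 8 assembly factors 5 were positive and 0 called (median 0.37). *Psme3*, *Psme4* and the inhibitor gene *Psmf1* gave 0 calls with a median of 0.42. In the same comparison 8 of 10 cTEC markers were called higher (median 2.70), among them *Prss16* at 3.71, *Cd83* at 3.66 and *Ccl25* at 3.05.

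Genes that load peptides on MHC class I had no common sign, and interferon-inducible genes had mostly the other sign. Of 12 loading genes 6 were higher and 6 lower at D6 in cTECs with 0 called and a median of 0.00. *Tap2*, a chain of the peptide transporter that lies near *Psmb8*, came closest with 0.96 (SE 0.14, adjusted p = 0.00526). *B2m*, the light chain of MHC class I, had −0.64 (adjusted p = 0.0839). Of 17 interferon-inducible genes 13 had negative values, with a median of −0.44, and 1 was called. That gene was *Ifit1*, an antiviral effector, with −1.37 (SE 0.20, adjusted p = 0.00526). *Irf1*, a regulator of immunoproteasome genes, had 0.72 (adjusted p = 0.207). In mTECs at D6 none of the lists of proteasome, loading or interferon genes had a called gene, and the medians were 0.57 for the constitutive catalytic genes, 0.30 for the other 20S subunits, 0.39 for 19S subunits, 0.09 for loading genes and −0.40 for interferon-inducible genes, beside 0.02 for all genes and 0.52 for the 6 genes.

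**Figure D4:**
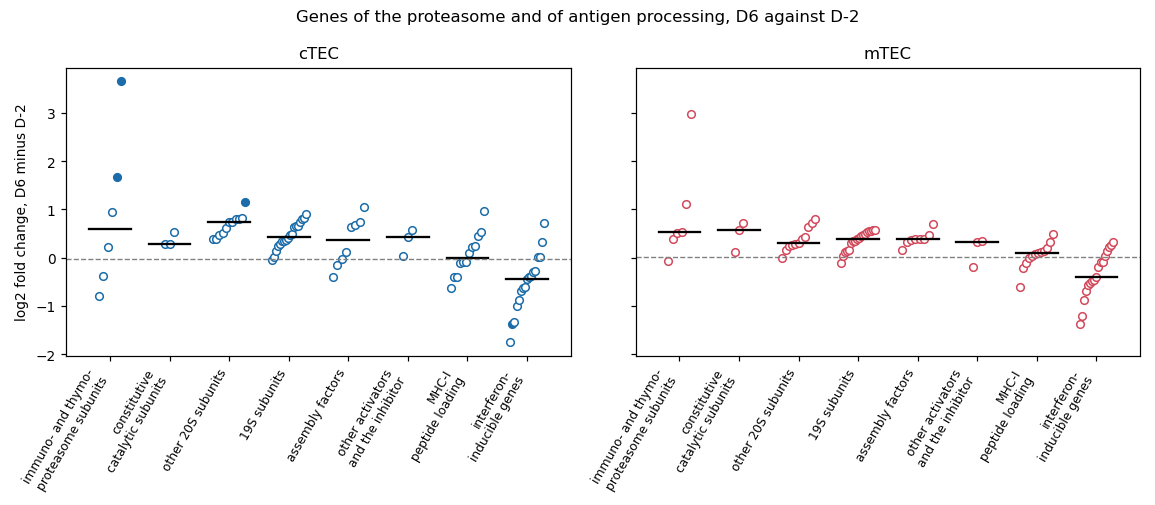
Log2 fold-changes of D6 against D-2 for each gene of 8 lists, in cTECs (left) and mTECs (right). Filled points were called by limma-voom, bars are the list medians and the dashed line is the median of all genes; *Psmb11* (3.67 and 2.98) lies far above the other 20S subunits, whose median was 0.73 in cTECs and 0.30 in mTECs.

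At the other comparisons the 20S genes of cTECs had small differences and 0 calls. All 11 were negative for D-2 against NPC (median −0.36, with −0.39 for the 6 genes and 0.03 for all genes) and all 11 negative for late against early (median −0.37, with −0.56 for the 6 genes and −0.04 for all genes). All 11 were positive for D12 against NPC (median 0.51, with 0.55 for the 6 genes and 0.07 for all genes). Between the cell types none of the 11 was called (median 0.13), nor were *Psmb5*, at 0.40, *Psmb6*, at 0.03, and *Psmb7*, at −0.14.

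The genes whose pattern over the 28 samples was most like that of each member were ranked by Pearson's r of log2(FPKM + 0.5) among genes averaging 5 FPKM or more. Among 10068 such genes in cTECs, the nearest to *Psmb11* were *Bnip3l* (0.97), *Ccl25* (0.96) and *Syngr1* (0.955), and the nearest to *Psmb10* were *Krt8* (0.96), *Isg20* (0.95) and *Bnip3l* (0.93). *Psmb9* was nearest to *Psmb10* itself (0.92), *Isg20* (0.91) and *Psma7* (0.91). *Psmb8* had *Tmem160* (0.91), *Ctdsp1* (0.90) and *Cenpb* first, none of them a proteasome gene. Values were lower for the PA28 genes in cTECs, with *Pglyrp1* (0.77) first for *Psme1*, and *Ide* (0.825), *Med19* (0.82) and the 20S gene *Psma6* (0.81) first for *Psme2*. Among 10502 such genes in mTECs, *Psmb11* was nearest to *Castor1*, *Pltp* (0.94 each) and *Ccl25* (0.93), and *Psme2* to *Syngr2* (0.86) and *H2-DMb2* (0.84).

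*Ccl25*, which encodes a chemokine of cTECs that attracts thymocyte progenitors, was among the 3 nearest to *Psmb11* in both cell types. *Ccl25* is also 1 of the 10 cTEC markers. Log2 *Psmb11* was set beside the summed FPKM of the 10 cTEC markers in each sample, with r = 0.92 over 28 cTEC samples and 0.91 over 28 mTEC samples. Among mTEC samples, in which *Psmb11* ranged from 4.51 to 178 FPKM, the marker sum averaged 5078 at D6 and 1417 in the late samples. The points share their libraries and time course. The sum includes *Ccl25*, *Foxn1* and other genes that the authors count as Foxn1 targets, such as *Prss16*, *Cd83* and *Dll4*. It also changed within sorted cTECs, from a mean of 2570 at D-2 to 14880 at D6. How far the sum follows cTEC content or RNA per cell was not tested. Whether mTEC values of *Psmb11* come from cTECs in the sort was not tested. Between the PA28 genes, r was 0.25 over cTEC and 0.625 over mTEC samples.

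**Figure D5:**
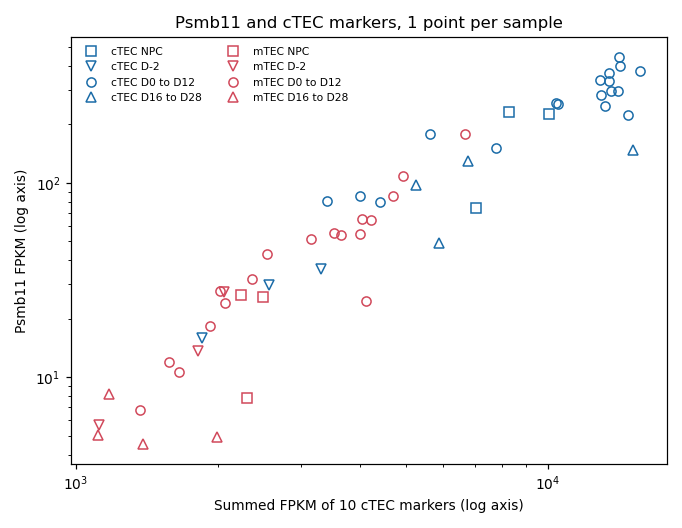
*Psmb11* FPKM against the summed FPKM of 10 cTEC markers, both on log axes, with 1 point per sample; colours give the cell type and symbols the time range. Samples of both cell types run from low left to high right, with late mTEC samples at 4.51 to 8.24 FPKM of *Psmb11* and D6 cTECs at 223 to 446; the D16 cTEC sample has a high marker sum of 15160 beside 148 FPKM.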

How the data were processed

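RNA of sorted cTECs and mTECs was sequenced from poly-A libraries made with a stranded KAPA kit. According to the submitters' processing notes, the authors used bcl2fastq 2.20, Trimmomatic 0.35, STAR 2.5.1b and RSEM 1.2.28 on GRCm38, and the annotation release is not given in the sources used here. For each gene and sample the authors deposited an expected count (not normalized) estimated by RSEM, and FPKM and TPM values, in which the length of the gene and the sample's total are divided out. Of the 50600 identifiers, 50376 matched GENCODE M21 on GRCm38, which gave symbols and coordinates. RefSeq windows (GRCm38.p6) were found for all 6 genes.

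Expected counts were rounded and tested with limma 3.58.1 (voom) after TMM scaling with edgeR 4.0.16 in R 4.3.3, on genes averaging 0.5 FPKM or more in the 28 samples of that cell type, or in either one where both were compared. Only samples of the groups compared entered a fit. Calls needed a change of 2-fold or more and p no higher than 0.01 after Benjamini-Hochberg adjustment over all genes tested. Levels, shares and correlations used FPKM, with log2(FPKM + 0.5) for correlations, in Python 3.11.15 with NumPy 2.4.6 and pandas 2.3.3. The text names the 6 genes, members of the gene lists, and the 3 genes nearest to each member. The members and the lists were chosen with earlier results of these data known. The lists covered proteasome genes, MHC class I loading, interferon-inducible genes and markers of cTECs, mTECs, thymocytes, macrophages and dendritic cells, and endothelium and mesenchyme. The script for the tests was tried on simulated data. Depth ranged from 4561207 to 108547384 expected counts, and each gene of the 6 had at least 239 counts in every sample. Alternatives were edgeR's quasi-likelihood test, DESeq2 1.42.0, limma-trend, no TMM, no filter, an adjusted p of at most 0.05, quality weights, a fit to all 28 samples, D12 counted as late, a replicate block, TPM and expected counts instead of FPKM, and omission of each replicate.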

Additional observations from a re-analysis of the deposited data

Results flagged for a closer look

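Levels of the 6 genes in the 4 late samples of each cell type (12 groups in all) were searched for a sample whose gap to its nearest neighbour was a large share of the group's range, above Dixon's 95% critical value for 4 samples. The 4 samples are of 4 different days and are not replicates of 1 time point. Chance flags about 1 in 20 such groups. *Psmb8* in mTECs had 121.84 FPKM at D16, against 240.09 to 252.19 in the other late samples, with a gap of 0.907 of the range. The same D16 sample was also the lowest of the late mTEC samples for *Psmb10* (201), *Psmb5* (58.9), *Psmb6* (139.8) and *Psmb7* (101), and not for *Psmb9*, *Psmb11*, *Psme1* or *Psme2*. *Psmb11* in mTECs had 8.24 FPKM at D20, against 4.51 to 5.06 in the others, with a gap of 0.853 of the range.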

How the results depend on the processing

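The number of called genes among the 6 was recomputed 254 times over the 16 comparisons and stayed the same or within 1.5 times in 231. For D-2 against NPC in cTECs it was 2 with DESeq2 and 1 without a filter on low genes. For D0 in cTECs it was 1 with each of these, and for D3 it was 2 with each, 1 in the fit to all 28 samples and 0 to 1 when each replicate was left out. For D6 in cTECs it was 0 with limma-trend under both pseudocounts, 0.5 and 0.1, and 1 to 2 when each replicate was left out. For D6 in mTECs it was 2 with DESeq2, without a filter, with quality weights and with an adjusted p of at most 0.05, and 1 without TMM. For late against early it was 1 in cTECs with an adjusted p of at most 0.05 and 3 with quality weights, and 1 in mTECs with DESeq2, with an adjusted p of at most 0.05 and with D12 counted as late. For the interaction at D6 it was 1 with DESeq2 (*Psme1*, −1.17, adjusted p = 0.000324). The cause of these differences was not tested. Of 717 recomputed log2 fold-changes 713 kept their sign. Those that reversed were all of *Psmb8*, at 0.05 without mTEC D6 replicate 2 and 0.06 without mTEC D-2 replicate 3 for D6 in mTECs (−0.15 to 0.06 over the replicates left out), and at 0.01 with quality weights and 0.06 with the replicate block for cTECs against mTECs.

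Counts of called genes over the whole table moved more. For D6 in cTECs 213 genes were called, against 757 with DESeq2, 395 without a filter, 690 with an adjusted p of at most 0.05 and 5 with limma-trend. For D6 in mTECs it was 53, against 470, 105, 257 and 0, and 91 with edgeR, 286 with quality weights and 2 in the fit to all samples. For late against early it was 223 in cTECs, against 45 with edgeR, 94 with DESeq2, 1045 with quality weights and 0 with D12 counted as late, and 11 in mTECs, against 2, 20, 28 and 159. Leaving out TMM moved the median of all genes by at most 0.087 (log2). Levels in TPM and shares from expected counts are on other scales than FPKM, and 122 of 134 differed by more than 1 SD.

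Most numbers in the sample titles are shared by a cTEC and an mTEC sample of a time point, and no label says whether these come from the same mouse. Deviations of same-numbered samples from their group means had correlations of −0.164 to 0.099. These cannot decide it, since different cell types of the same mouse need not deviate alike. The main tests took cTEC and mTEC samples as unpaired. Title numbers differ between time points, so there the replicate block used the order of the samples within their group, which no label ties to a pairing and which gave correlations of −0.134 to 0.108. With the replicate block the number of called genes among the 6 was unchanged in all 14 comparisons, at 2 for D6 in cTECs (195 genes over the whole table), 0 for D6 in mTECs (145), 3 for cTECs against mTECs and 0 in the others. Each of the 6 genes had at least 239 counts in every sample. The effect of depth and of group size on the calls was not tested.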
